A study of Mesocricetus auratus with 21 samples.

Results

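Whole testes of Mov10l1-/- golden hamsters were compared between 21 days postpartum (d.p.p.) and adulthood across all annotated genes, to ask how a testis that lost most of its germ cells changed as the animal matured. These were 4 of the 21 RNA-seq libraries of the series, 2 at each age and each from a different animal. The adult Mov10l1-/- animals were 63 weeks old for replicate 1 and 53 weeks old for replicate 2. Wild-type (Mov10l1+/+) libraries of the same ages, 2 per age, served as the reference, and these adults were 65 and 23 weeks old. The 2 mutant libraries of 13 d.p.p. are drawn on once. Puberty and ageing therefore cannot be told apart in the adults, and neither can age and the day on which libraries were made. The mutant line came from 1 founder female, and the tissue was the whole testis, so a lower value from fewer cells of a type and one from less RNA per cell cannot be told apart.

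MOV10L1 is an RNA helicase of germ cells that hands precursor transcripts to the machinery making piRNAs, the small RNAs with which PIWI proteins silence retrotransposons. Spermatogonia divide along the wall of the seminiferous tubule, enter meiosis as spermatocytes and then mature into spermatids. Sertoli cells nurse them inside the tubule, peritubular cells wrap it, and Leydig cells between the tubules make testosterone.

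The knockout removes exon 20 of Mov10l1, which lies on MesAur1.0 scaffold KB708136.1 from 11073749 to 11134091 on the plus strand. It was made with Cas9 and 4 guides that cut in the introns on either side. Their DNA targets are printed because they show which piece of the gene is missing, and all other exons can still yield reads. They are given 5′ to 3′ as the labels have them, in lower case with nothing marked.
Intron 19, guide 1: gggtatcacatgacttgggg
Intron 19, guide 2: ggtgttgggatcatagtgggg
Intron 20, guide 1: tctccactcttccatgtgggg
Intron 20, guide 2: taccattacatttgtcagggg

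Libraries of the mutant held 25514940 and 39587754 counts at 21 d.p.p. and 34049069 and 40918519 in adults, and those of the wild type 6549394 to 38012929. Levels are given in counts scaled to the library's effective total (CPM), scaled over the 12 paired-end libraries together, and each sentence on a level names replicate 1 before replicate 2. The 10 most abundant genes took 52.6% of the counts of the mutant 21 d.p.p. replicate 1, against 38.4 to 41.6% in the other 3 mutant libraries. In wild-type replicate 2 of that age, whose animal code starts like that of this mutant, the share was 53.0%. The replicates differed by more than sampling noise, with a chi-square per degree of freedom of 192 between the 21 d.p.p. mutants and 24.0 between the adult mutants.

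By edgeR's quasi-likelihood test with an adjusted p of 0.01 as the limit, 2378 of the 14549 genes tested were higher in adults than at 21 d.p.p. (16.3%) and 1919 were lower (13.2%), together 29.5%. Scaled by library totals alone the counts were 1785 and 928, so the share of higher genes among those called was 65.8% instead of 55.3%. With upper-quartile scaling 2155 were higher and 2328 lower, a share of 48.1%, so the direction with more genes depended on the scaling. A total of 559 genes rose (3.84%) and 316 fell (2.17%) when the test asked for more than a 2-fold change, together 6.01%. Symbols were in hand for 990 of the genes tested, of which 247 were higher (24.9%) and 160 lower (16.2%). These genes have symbols because they differed between mutants and wild type in newborn or 9 d.p.p. testes, or in oocytes. The gene lists below therefore draw on a selected set, in which 24.9% were higher and 16.2% lower. Counts of calls in a list are to be set against those shares.

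Most germ cell genes rose. The 4 lists of germ cell genes, from spermatogonia to late stages, hold 74 genes. Of these 52 were higher in adults and 1 was lower, against 24.9% and 16.2% of the genes with a symbol. Over all genes tested the shares were 16.3% and 13.2%. All 74 could be tested without a filter on low counts, and then 61 were higher and 3 lower. Their summed level was 171 and 180 CPM at 21 d.p.p. and 506 and 471 CPM in adults, against 15198 and 16191 CPM in wild-type adults. Kit, which Leydig cells also make, held 32.9 and 37.3 CPM of this in mutants at 21 d.p.p. and 112 and 106 CPM in adult mutants. The sums may therefore not be germ cell RNA alone. At 21 d.p.p. 25 of the 74 had under 10 counts in both mutant libraries, and 23 of these had at least 10 in both adults, so they entered the test through their adult values. Germ cell RNA was thus low but present in the adult libraries. The paper itself reports small clusters of cells staining for germ cell and meiotic markers in a small part of adult mutant tubules. Leaving out any 1 library left 38 to 41 higher. Both adults lay above both 21 d.p.p. libraries for 64 of the 74 genes, against 38.3% of all genes tested, and below them for 5, against 39.5%. The median log2 fold change of the 72 genes tested was 2.56, and 1.38 for the 38 genes with at least 10 counts in every library, of which 23 were higher.

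Mov10l1 itself rose with them. Its transcript stood at 0.112 and 0.127 CPM at 21 d.p.p., which are 2 and 5 counts, and at 1.81 and 2.00 CPM in adults, which are 56 and 80 counts. The rise was 15.3-fold (log2 fold change 3.94, SE 0.39, edgeR adjusted p = 0.000502), and the ratio of counts had a 95% interval of 7.40 to 39.7 from counting error alone. Adult levels were 3.96% of the wild-type mean.

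Against 24.9% and 16.2% of the genes with a symbol, and 16.3% and 13.2% of all genes tested, 18 of 22 spermatogonial genes were higher. The 1 lower was the RNA helicase gene Ddx43. The list's median log2 fold change was 2.40, against -0.02 over all genes tested. It was 1.57 over the 12 genes with at least 10 counts in every library, of which 8 were higher and 1 lower. Gfra1, the receptor through which Sertoli cell GDNF keeps spermatogonial stem cells, stood at 0.391 and 0.509 CPM at 21 d.p.p. and at 17.5 and 12.7 CPM in adults. That is a 32.2-fold rise (log2 fold change 5.01, SE 0.28, edgeR adjusted p = 8.00e-05), to a level whose libraries overlapped those of wild-type adults at 13.6 and 12.6 CPM.
Other genes of spermatogonia moved in the same way. Sall4, a zinc finger factor of stem and progenitor spermatogonia, went from 0.223 and 0.229 to 3.29 and 3.00 CPM (log2 fold change 3.78, SE 0.32). Sohlh1, a factor that drives spermatogonial differentiation, went from 0.279 and 0.153 to 3.23 and 2.92 CPM, and Uchl1 from 0.112 and 0.127 to 1.84 and 1.57 CPM. Both adults lay above both 21 d.p.p. libraries for all of these genes, as for 38.3% of all genes tested.

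Kit is made by differentiating spermatogonia and by Leydig cells. It was at 32.9 and 37.3 CPM at 21 d.p.p. and at 112 and 106 CPM in adults, a 3.11-fold rise, and its adult level was 1227% of the wild-type mean. Ddx4, the germ cell RNA helicase, rose from 0.112 and 0.331 to 4.85 and 3.85 CPM (log2 fold change 4.09, SE 0.40, edgeR adjusted p = 0.000474). Dazl, a germ cell RNA-binding protein gene, rose from 1.28 and 1.65 to 9.37 and 8.92 CPM. Both stayed far under the wild-type adults, at 0.734% and 11.9% of their means. Zbtb16, a stem cell factor, passed the test with a log2 fold change of 1.27 but did so neither without 21 d.p.p. replicate 1 nor without adult replicate 2. D1Pas1 and Tex16, testis-restricted genes of this list, rose by 4.50 and 4.67 on the log2 scale. D1Pas1 had 3 and 7 counts at 21 d.p.p. and 131 and 151 in adults. Tex16 had 1 and 9 counts and then 128 and 186.

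**Figure D1:**
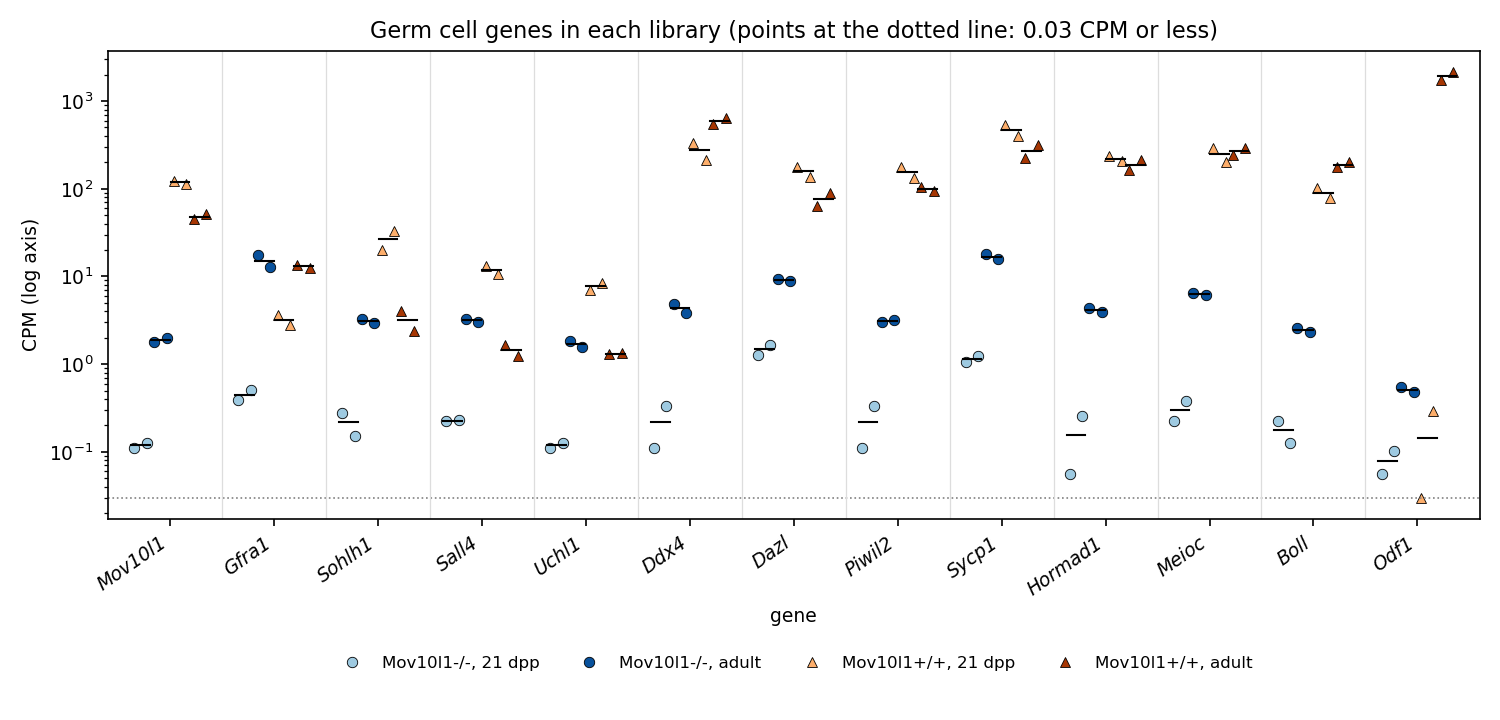
Level in CPM (log axis) of 13 germ cell genes in each library, with circles for Mov10l1-/-, triangles for Mov10l1+/+, pale for 21 d.p.p., dark for adults and a bar at each group's mean. For all 13 genes both adult mutant libraries lie above both 21 d.p.p. mutant libraries. That holds for 64 of the 74 listed germ cell genes, with 5 the other way, against 38.3% and 39.5% of all genes tested. For Odf1 the adult mutants lie at 0.549 and 0.475 CPM while the wild-type adults lie at 1748 and 2144 CPM.

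Of 19 piRNA pathway genes 17 passed the filter. Among these 11 were higher and none lower, Mov10l1 included, against 24.9% and 16.2% of the genes with a symbol. The list's median log2 fold change was 2.97, and 0.98 over the 9 with at least 10 counts in every library. Of those 9, 5 were higher. Without 21 d.p.p. replicate 2, 7 were higher. Piwil2, a PIWI protein gene of fetal and adult germ cells, rose from 0.112 and 0.331 to 3.00 and 3.20 CPM (log2 fold change 3.61, SE 0.40, edgeR adjusted p = 0.000762). Rnf17, a Tudor protein gene of germ cell granules, rose by 3.45 (SE 0.26) on the log2 scale. Btbd18, a regulator of pachytene piRNA loci, rose by 4.21 (SE 0.41), from 2 and 4 counts to 67 and 74. Gtsf1, a partner of PIWI proteins, had 1 count in each 21 d.p.p. library and 46 and 40 counts in adults, a count ratio of 34.7 with a counting interval of 9.31 to 291. Piwil1, the PIWI protein gene of pachytene cells, gave 0.335 and 0.204 against 1.32 and 0.825 CPM and did not pass (log2 fold change 2.08, edgeR adjusted p = 0.0105). Tex15, another member, was at 33.2 and 30.4 CPM at 21 d.p.p. and at 30.7 and 31.4 CPM in adults.

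Genes of meiosis followed. Of 17 genes 11 were higher and none lower, against 24.9% and 16.2% of the genes with a symbol. The list's median log2 fold change was 2.31, and 1.58 over the 11 with at least 10 counts in every library. Of the latter 11, 6 were higher. Sycp1, which builds the synaptonemal complex between paired chromosomes, rose from 1.06 and 1.25 to 17.96 and 15.8 CPM (14.4-fold, SE 0.19 on the log2 scale, edgeR adjusted p = 5.24e-05). Smc1b, a meiotic cohesin subunit, and Meioc, which holds germ cells in the meiotic programme, rose by 3.52 and 4.26 on the log2 scale. Majin, which ties telomeres to the nuclear envelope, had 0 and 3 counts at 21 d.p.p. and 55 in each adult. Sycp3, the other classical component of the synaptonemal complex, was at 4.02 and 4.00 CPM and then at 7.30 and 5.25 CPM, without passing the test (edgeR adjusted p = 0.0469).

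The list of late germ cell genes covers pachytene spermatocytes and spermatids. Of its 16 genes 12 were higher, and leaving out 1 library gave 7, 5, 7 and 8, in the order 21 d.p.p. replicates 1 and 2 and adult replicates 1 and 2. The median log2 fold change was 2.86, and 1.27 over the 6 genes with at least 10 counts in every library. Of those 6, 4 were higher. Among the genes with a symbol 24.9% were higher and 16.2% lower. Boll, which is needed for spermatid development, went from 0.223 and 0.127 to 2.55 and 2.30 CPM. Tcfl5 rose by 2.96 and Rpl10l by 4.03 on the log2 scale. Rpl10l had 4 and 6 counts at 21 d.p.p. and 98 and 108 in adults. Odf1, a protein of the sperm tail, had 1 and 4 counts at 21 d.p.p. and 17 and 19 counts in adults. Its level of 0.549 and 0.475 CPM compares with 1748 and 2144 CPM in wild-type adults, and its call was lost when any 1 library was left out.

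Among the 4 germ cell lists, the adult mutant level set beside wild type was highest for spermatogonial and lowest for late genes. The median over members was 66.4% of the wild-type adult mean for spermatogonial genes, 4.50% for piRNA pathway genes, 4.37% for meiotic genes and 0.832% for late genes. At 21 d.p.p. the same medians were 2.96%, 0.455%, 0.863% and 0.444%. The ratio of mutant to wild type in adults was not alike from gene to gene, since it ran from 0.0263% for Odf1 to 1227% for Kit. The adult mutant mean was over that of the wild type for 9 of the 74 genes, and the 21 d.p.p. mutant mean for 2. Among somatic lists the adult median was 665% for Sertoli cell genes, 350% for matrix genes and 70.5% for retinoic acid genes. A percent of the wild-type level is therefore not a measure of how many cells of a type were present.

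**Figure D2:**
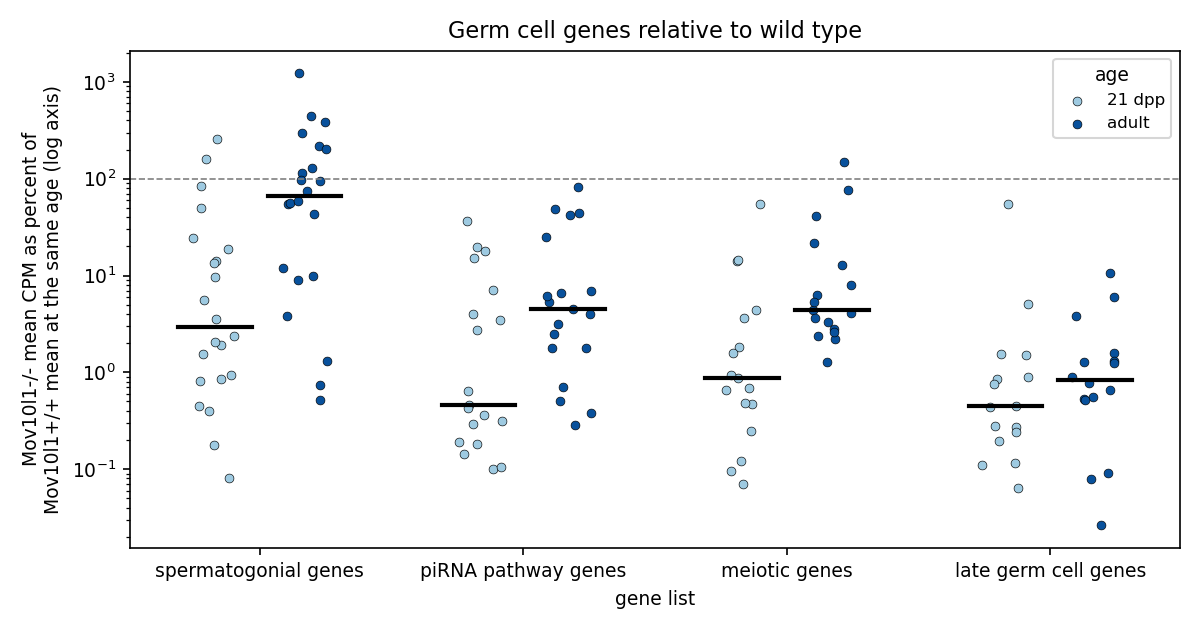
Mean CPM of each gene in Mov10l1-/- as a percent of the Mov10l1+/+ mean at the same age (log axis), by germ cell list, pale for 21 d.p.p. and dark for adults, with a bar at the median and a dashed line at 100%. The adult medians step down from 66.4% for spermatogonial genes to 0.832% for late genes.

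The younger mutants at 13 d.p.p. bear on where these levels started. Summed over the 74 genes they held 256 CPM in replicate 1 and 160 CPM in replicate 2, and 59 of the genes had a higher mean there than at 21 d.p.p. Replicate 1 exceeded replicate 2 for 61 of the genes, with Ddx4 at 4.71 and 0.948 CPM. The 13 d.p.p. animals differed among themselves, and replicate 2 was below both 21 d.p.p. libraries.

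Sertoli cell genes moved in both directions. Of 12 genes 5 were lower and 2 higher. Of the genes with a symbol 16.2% were lower and 24.9% higher, and of all genes tested 13.2% and 16.3%. The list's median log2 fold change was -0.80. Inhba, the activin subunit that Sertoli cells make around birth, fell from 23.7 and 23.6 to 2.36 and 2.35 CPM (log2 fold change -3.32, SE 0.14, edgeR adjusted p = 5.00e-05). Inhbb, the subunit of inhibin B, fell from 118 and 163 to 52.1 and 41.3 CPM, and Kitl, the ligand of KIT, from 414 and 448 to 160 and 203 CPM. Cst12, a cystatin gene, fell by 0.76 on the log2 scale, and the fifth was the keratin gene Krt8, whose call was lost without 21 d.p.p. replicate 2 and without adult replicate 2.
Clu, the most abundant gene of the list, stayed level, with 4091 and 4187 CPM at 21 d.p.p. and 4068 and 4185 CPM in adults. Defb119, a defensin gene of Sertoli cells, rose 17.4-fold from 55.2 and 44.3 to 901 and 823 CPM (log2 fold change 4.12, SE 0.18, edgeR adjusted p = 5.00e-05). Espn, an actin bundler of Sertoli cell junctions, rose from 512 and 556 to 1179 and 1080 CPM. The list as a whole summed to 6916 and 7038 CPM at 21 d.p.p. and 7280 and 7445 CPM in adults.

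In the activin and inhibin pathway, 3 of 8 genes were lower and 1 was higher, against 16.2% and 24.9% of the genes with a symbol. Inha, the subunit shared by both inhibins, was at 770 and 785 CPM and then at 325 and 541 CPM, which did not pass (edgeR adjusted p = 0.0271). The secreted activin antagonists went apart, since Fst fell by 2.80 and Fstl3 rose by 2.87 on the log2 scale. Fstl3 was at 3.74 and 6.72 CPM at 21 d.p.p. and at 39.0 and 39.9 CPM in adults.

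Sterol and steroid genes held 2 members that rose and none that fell, of 13. That is no larger a share of rises than the 16.3% of all genes tested or the 24.9% of those with a symbol. Cyp27a1, the mitochondrial sterol 26-hydroxylase, rose from 2.12 and 1.65 to 56.9 and 47.8 CPM (28.7-fold, SE 0.19 on the log2 scale, edgeR adjusted p = 5.00e-05). It was at 1.81 and 1.08 CPM in wild-type adults. The gene of EBP, a cholesterol synthesis enzyme, rose by 1.16 on the log2 scale. CYP11A1, which starts steroid synthesis in Leydig cells, was at 435 and 322 CPM and then at 509 and 646 CPM, a change that did not pass (log2 fold change 0.61, SE 0.20, edgeR adjusted p = 0.0421). Of 5 retinoic acid genes Crabp1, a binding protein, was the 1 called, at 0.335 and 0.153 and then 1.10 and 0.875 CPM, and leaving out any 1 library ended that call.

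**Figure D3:**
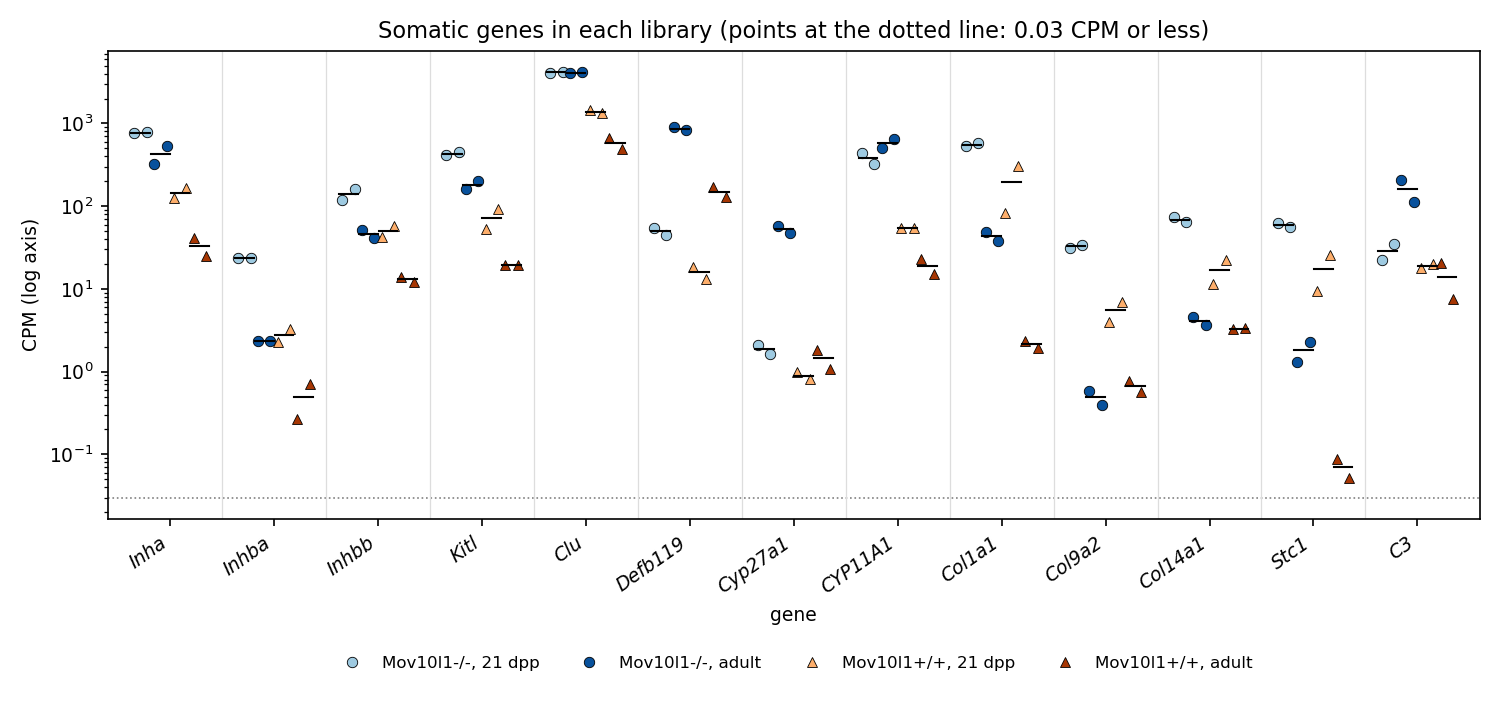
Level in CPM (log axis) of 13 genes of somatic cells in each library, with circles for Mov10l1-/-, triangles for Mov10l1+/+, pale for 21 d.p.p., dark for adults and a bar at each group's mean. Defb119 and Cyp27a1 are over 15-fold higher in the adult mutants, Col9a2 and Stc1 over 30-fold lower, and Clu is level between 4068 and 4187 CPM.

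Of 40 extracellular matrix genes 16 were lower, 5 were higher and 19 were not called, with a median log2 fold change of -0.67. Over all genes tested 13.2% were lower and 16.3% higher, and over those with a symbol 16.2% and 24.9%. Col1a1, the main fibrillar collagen of connective tissue, fell 12.8-fold from 529 and 584 to 48.5 and 37.9 CPM (log2 fold change -3.68, SE 0.17, edgeR adjusted p = 5.00e-05). The fibril-associated collagens fell with it. Col9a2 went from 31.4 and 34.4 to 0.581 and 0.400 CPM, which is 67.5-fold, and was the largest fall of any gene with a symbol that met the limits for naming. Col9a1 fell by 3.34 and Col14a1 by 4.06 on the log2 scale. The same held for Tnc, the matrix glycoprotein tenascin C, with a log2 fold change of -3.41, and for a versican-like gene with -3.53. Among the 5 higher genes were Timp1, the inhibitor of matrix metalloproteinases, at 25.2 and 30.1 and then 45.5 and 50.3 CPM, and Reln, with a log2 fold change of 1.14. Fewer were called without adult replicate 2, and Timp1 lost its call there, with a log2 fold change of 0.73.

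Of 15 genes of smooth muscle and peritubular cells 8 were lower and 1 was higher, and fewer were lower without adult replicate 2. Of the genes with a symbol 16.2% were lower and 24.9% higher. Tagln, an actin-binding protein, fell from 20.9 and 18.7 to 6.59 and 6.95 CPM (log2 fold change -1.54, SE 0.14), Flnc by 1.78 and Pdlim4 by 1.46 on the log2 scale. Myh11, the smooth muscle myosin, was at 221 and 251 and then at 151 and 140 CPM (log2 fold change -0.69, edgeR adjusted p = 0.00458). It lost its call without either adult library and under scaling by library totals. Pgm5 was the member that rose, by 1.63 on the log2 scale. Of 10 endothelial genes 3 were lower and none higher, against the same shares. The lower ones were Exoc3l2, Cav2 and Mcam, with log2 fold changes of -0.77, -1.33 and -0.68. Mcam is also in the smooth muscle list and counts among its lower genes. None of the endothelial genes was called without adult replicate 2 and 1 without adult replicate 1. Scaled by library totals, 13 matrix genes were lower and 3 higher, 4 smooth muscle genes were lower, and 1 endothelial gene was lower.

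**Figure D4:**
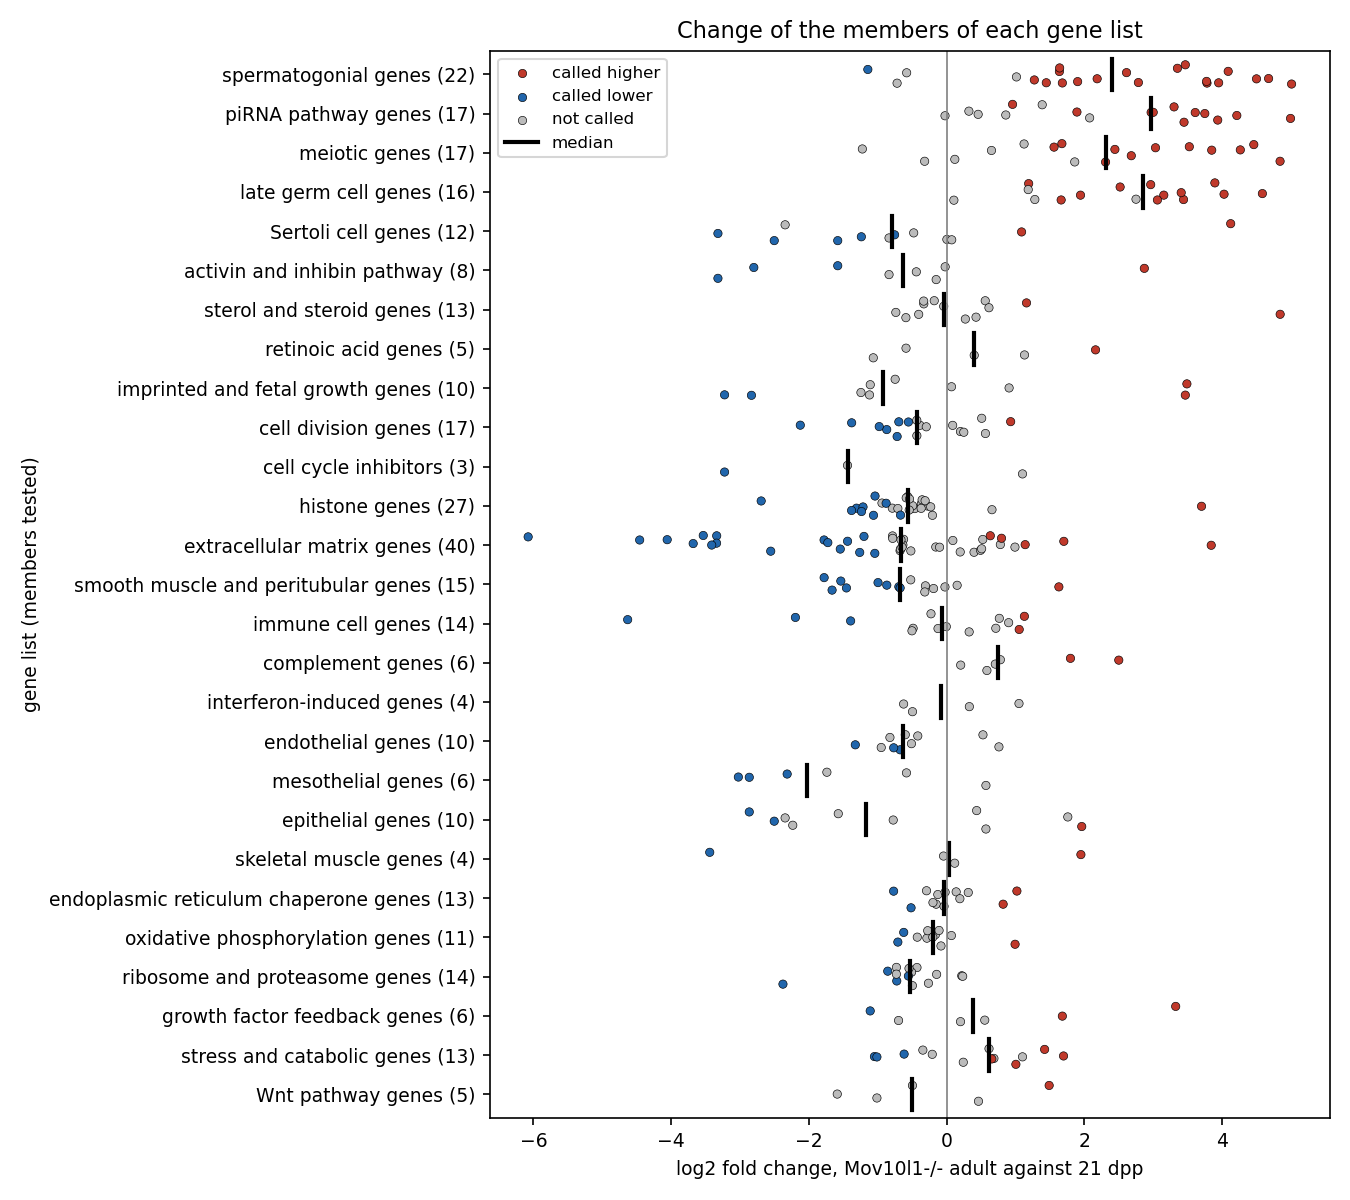
Log2 fold change of each tested member of the 27 gene lists between adult and 21 d.p.p. Mov10l1-/- testes, red where called higher, blue where called lower and grey where not called, with a bar at the list's median. Germ cell genes that passed the filter through their adult values are included in those 4 lists, and the matrix list reaches -6.08 with Col9a2.

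Immune genes were called in both directions and complement genes upwards. The immune genes called higher, counted below, were no larger a share than the 16.3% of all genes tested. Of the genes with a symbol 24.9% were higher and 16.2% lower. Csf1r, the receptor that macrophages need, rose from 18.3 and 16.1 to 44.3 and 30.3 CPM (log2 fold change 1.13, SE 0.20, edgeR adjusted p = 0.00412), a call lost without either 21 d.p.p. library. Of 17 immune genes 14 were tested, 2 were higher and 3 lower, and without 21 d.p.p. replicate 2 none was higher and 2 were lower. Pdcd1, an inhibitory receptor of lymphocytes, went from 1.62 and 2.04 to 0.0646 and 0.0750 CPM, while Cd3e, a T cell marker, was near 0 at both ages. Il10ra, the interleukin 10 receptor subunit, fell by 2.20 on the log2 scale. C3, the central complement protein, rose from 22.2 and 34.7 to 209 and 114 CPM (log2 fold change 2.50, SE 0.33), and Serping1, the C1 inhibitor, by 1.80 on the log2 scale. No interferon-induced gene of 4 was called by edgeR, 2 had an unadjusted p below 0.05, and Igtp, the most abundant, was at 189 and 153 and then 102 and 119 CPM.

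Of 3 cell cycle inhibitors 1 was lower and 2 were not called, with Cdkn1a at a log2 fold change of 1.10 (edgeR adjusted p = 0.0323), which was called without 21 d.p.p. replicate 2. Of 17 cell division genes 7 were lower and 1 was higher, and leaving out 1 library gave 3 to 5 lower, with 4 without 21 d.p.p. replicate 2, 3 without adult replicate 1 and 4 without adult replicate 2. Rbl1, the pocket protein p107, fell from 22.3 and 23.2 to 5.30 and 5.10 CPM (log2 fold change -2.13, SE 0.13, edgeR adjusted p = 0.000100). H2ax fell by 0.98 on the log2 scale. Cdk4, with a log2 fold change of -0.56, lost its call without any of these 3 libraries. Rpa2, a replication protein, rose by 0.93, and Ezh2 did not pass (edgeR adjusted p = 0.0325). Of the genes with a symbol 16.2% were lower and 24.9% higher. Under scaling by library totals 2 of the cell division list were lower and none higher. That inhibitor, Cdkn1c, is an imprinted gene and fell from 49.1 and 54.7 to 7.14 and 4.02 CPM (log2 fold change -3.22, SE 0.25). Mycn, a growth-promoting transcription factor, fell from 40.3 and 50.8 to 5.91 and 6.77 CPM.
Trim71, a partner of LIN28 in progenitor cells, rose from 0.391 and 0.255 to 3.55 and 3.30 CPM, and Lin28a from 0.0558 and 0.0764 to 0.775 and 0.825 CPM. The imprinted genes Igf2 and Mest and the RNA-binding protein gene Igf2bp3 were not called, with log2 fold changes of -1.11, 0.07 and 0.91. Of 27 histone genes 9 were lower and 1 higher, against 16.2% and 24.9% of the genes with a symbol. Under scaling by library totals 3 were lower. The higher one, annotated as histone H3.1, went from 4.47 and 3.89 to 58.5 and 48.5 CPM and stood at 1028 and 1172 CPM in wild-type animals of 21 d.p.p. Histone genes share reads with near-identical copies, so these values are uncertain.

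Lists of general cell functions held calls in both directions. For the chaperone genes the shares called were near those over all genes tested, 16.3% higher and 13.2% lower. Every list here is to be set beside the genes with a symbol, 24.9% higher and 16.2% lower. Of 13 chaperone genes of the endoplasmic reticulum 2 were higher, Pdia6 and Sdf2l1, and 2 lower, with Hspa5 at 947 and 1014 and then 1079 and 1067 CPM. Of 11 oxidative phosphorylation genes ND6 was higher and Atpif1 and Cox7b lower. Mrps26, a mitochondrial ribosome protein gene, fell from 92.9 and 89.5 to 17.96 and 16.97 CPM, and 3 more of the 14 ribosome and proteasome genes were lower. Scaled by library totals, none of the chaperone and oxidative phosphorylation genes was called and 1 ribosome or proteasome gene was lower. The same counts were found without adult replicate 2, and Atpif1 and Cox7b each lost their call without 3 of the 4 libraries. Pink1, the kinase that marks damaged mitochondria, rose from 33.6 and 36.0 to 117 and 108 CPM (log2 fold change 1.70, SE 0.11, edgeR adjusted p = 0.000125). Of the 13 stress and catabolic genes 4 were higher and 3 lower (3 and 1 without adult replicate 2), with Fbxo32 at a log2 fold change of 1.42 and Ddit4 at -1.05. Etv5, a factor downstream of growth factor receptors in Sertoli cells and spermatogonia, rose by 1.68 and Spred1, an inhibitor of that signalling, fell by 1.11 on the log2 scale. Egr4, at 0 and 8 counts at 21 d.p.p. and 56 and 38 in adults, was called, but neither without 21 d.p.p. replicate 1 (edgeR adjusted p = 0.0201) nor without adult replicate 1 (0.0223). Wif1, a Wnt antagonist, rose by 1.49. Of the skeletal muscle list, Tnni1 was higher by 1.95 and Pvalb was lower by 3.44, while Myog and Pax7 were at 0.25 CPM or less in all 4 libraries. Ptgds, which makes prostaglandin D, was at 755 and 668 and then 568 and 600 CPM (edgeR adjusted p = 0.152).

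Beyond the lists, the largest changes belonged to genes of mixed function. Gm364, a transmembrane 9 superfamily member, rose from 0.223 and 0.331 to 11.2 and 8.97 CPM (34.1-fold). Serpina6, the corticosteroid-binding globulin, rose from 1.01 and 0.560 to 15.7 and 20.5 CPM (25.2-fold), and Brsk1, a kinase best known from neurons, from 0.838 and 1.27 to 25.9 and 28.0 CPM (24.4-fold).
Among the falls was Stc1, the hormone stanniocalcin 1, from 63.5 and 55.8 to 1.32 and 2.30 CPM, which is 32.1-fold. Foxo6, a forkhead factor, fell from 25.7 and 31.1 to 1.36 and 1.5 CPM, and Rnf182, a ubiquitin ligase, from 13.5 and 12.9 to 0.355 and 0.375 CPM. Krt80, C1qtnf3 and Scrn1 fell by 4.59, 4.71 and 4.21 on the log2 scale, and for C1qtnf3 the 21 d.p.p. libraries stood at 11.2 and 4.2 CPM.
Genes without a symbol changed more still. ENSMAUG00000020089 had no count in either 21 d.p.p. mutant and 404 and 309 counts in adults, which is at least 192-fold higher against a floor of 3 counts over the group. ENSMAUG00000011114 had 0 and 3 counts and then 820 and 1466, a ratio of 614 with a counting interval of 210 to 2981. ENSMAUG00000022172 fell from 36.1 and 37.1 to 0.162 and 0.0250 CPM, and ENSMAUG00000009144 from 6.09 and 8.60 to 0.0646 and 0.0750 CPM.

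The wild-type testis was tested over the same span, with 28.9% of 15285 genes higher and 22.9% lower, together 51.8%. Of the germ cell genes 24 were higher and 19 lower there, of 73 tested. Among 13753 genes tested in both genotypes, 695 were higher in both, which is 30.6% of the genes higher in mutants and 20.4% of those higher in wild type. For the lower genes 876 were shared, 47.9% and 25.5% of the respective calls. Over all 13753 genes, 3408 were higher and 3430 lower in wild type, and 2274 were higher and 1830 lower in mutants. A further 291 genes rose in mutants and fell in wild type, and 272 did the reverse. Inhba, Inhbb and Kitl fell in wild type as well, with log2 fold changes of -2.46, -1.78 and -1.76, Col1a1 with -6.37, and Defb119 rose by 3.40.

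**Figure D5:**
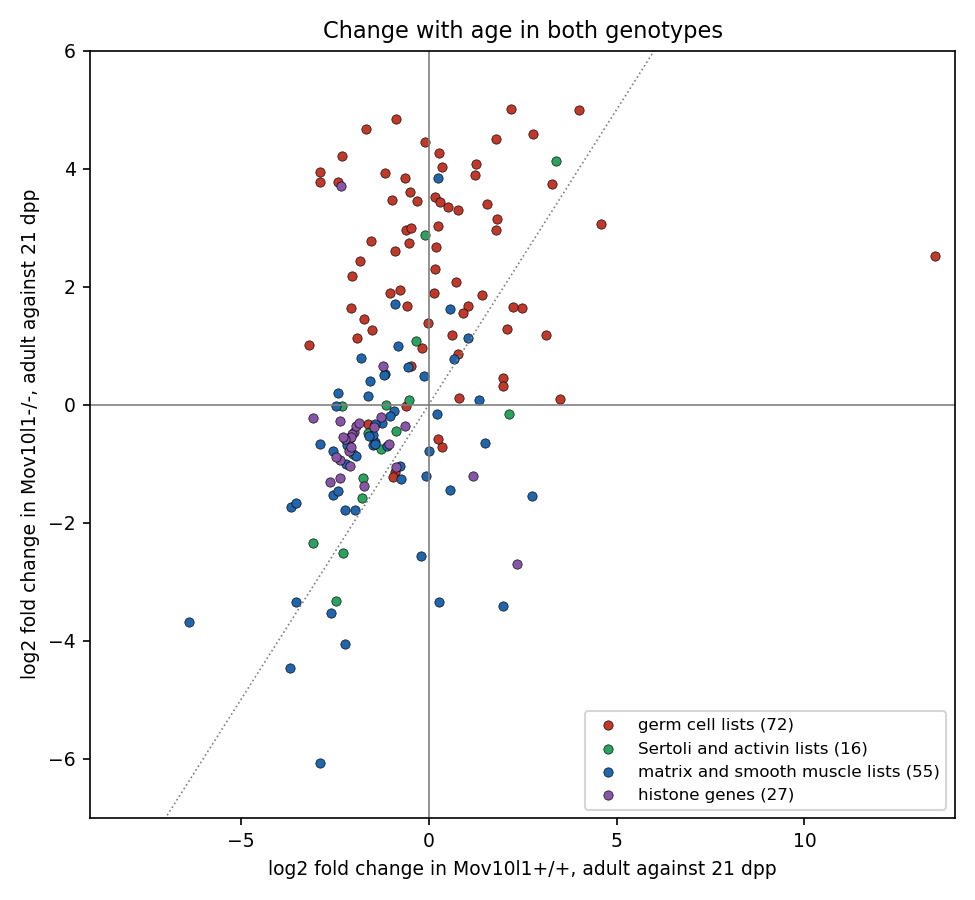
Log2 fold change between adult and 21 d.p.p. in Mov10l1+/+ (horizontal axis) against Mov10l1-/- (vertical axis) for members of 4 sets of gene lists tested in both, with the dotted line where the changes are equal. Germ cell genes lie mostly above the line and Odf1 lies far to the right, at 13.46 in wild type and 2.52 in mutants.

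A test of the interaction of genotype and age gave the difference between the changes. It called 3660 of 16406 genes more positive in mutants (22.3%) and 3024 more negative (18.4%), together 40.7%, with a median difference of 0.29 on the log2 scale over all genes. The balance depended on the scaling, with 2995 and 3848 by DESeq2, 2891 and 3405 with RLE size factors, and 6485 and 1812 by totals without the 10 most abundant genes. Of the 74 germ cell genes 45 were more positive and 3 more negative. Sall4 fell in wild type, from 13.1 and 10.7 to 1.63 and 1.23 CPM, and rose in mutants, a difference of 6.79 (edgeR adjusted p = 4.63e-06). Sohlh1 differed by 6.98 and Gm364 by 7.14 in the same way. What part the changing mix of cells in the wild type had in these differences was not tested. Vdr, the vitamin D receptor, fell in mutants from 12.6 and 19.0 to 1.65 and 2.12 CPM and rose in wild type from 0.982 and 1.21 to 17.3 and 25.96 CPM. The difference was -7.33 (edgeR adjusted p = 4.57e-06).

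Some epithelial and mesothelial genes differed between the 21 d.p.p. mutants. Replicate 2 held more of them, with Epcam at 1.23 and 11.5 CPM, Krt8 at 3.35 and 11.5, and Krt18 at 1.79 and 6.92. Krt7 was at 2.79 and 10.3 CPM, and Msln at 1.40 and 5.70. In the adult mutants each of these stood between 0.388 and 1.55 CPM. Of 6 mesothelial genes 3 were lower in adults, Msln, Krt7 and Lrrn4, and of 10 epithelial genes 2 were lower and Ap1m2 was higher. Without replicate 2 the medians of these lists went from -2.03 to -1.35 and from -1.18 to 0.60, and the calls of Krt8 and Msln were lost. Krt8 and Krt18 are also in the list of Sertoli cell genes. Whether tissue other than testis was present, and what part it had in other results, was not tested. Summed over members, the mesothelial list held 111 and 130 CPM at 21 d.p.p. and 164 and 138 CPM in adults, and the epithelial list 197 and 264 CPM and then 345 and 308 CPM, most of it from Krt19 and Lsr.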

How the data were processed

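RNA of whole testes was depleted of ribosomal RNA with either of 2 kits, and which kit went with which library is not given in the sources used here. The authors aligned reads to MesAur1.0 with STAR 2.7.3a and counted them over Ensembl exons with featureCounts 2.0.0, splitting multimapping and overlapping reads as fractions and using strand for stranded libraries. They deposited these estimated counts without normalization, so genes with near-identical copies have uncertain values.

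Estimated counts were rounded here before fitting. In R 4.3.3, edgeR 4.0.16 was run on each contrast by itself (TMM, filterByExpr, quasi-likelihood test, Benjamini-Hochberg adjustment). The limit for a call was an adjusted p of 0.01, which the study used with DESeq2. SE is the log2 fold change divided by the root of F. The interaction used 8 libraries. With 2 against 2, an exact permutation test of 1 gene cannot go below p = 0.333. Groups and replicates came from the labels, and each replicate of the libraries used here is a different animal. Symbols and positions came from the study's supplementary tables, for 1044 of 22285 genes.

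The text names Mov10l1, the 8 genes with a symbol that rose most and the 8 that fell most (mean of at least 1 CPM in 1 group, groups not overlapping), up to 2 genes without a symbol per direction, a panel of 27 genes, 3 called members of each of 27 lists, and 5 interaction genes per direction. Other list members were named after their values were seen. The contrast, lists and panel were chosen with earlier results of these data known. Alternatives were DESeq2 1.42.0, other scalings and filters, another threshold, a 2-fold test, a joint fit of 12 libraries, a replicate block and leaving out each library. Scaling by library totals without the 10 most abundant genes was added after seeing the data. The fits were tested on simulated data. Python 3.11.15, pandas 2.3.3, numpy 2.4.6, scipy 1.17.1 and matplotlib 3.10.9 were used. Counting intervals and floors cover counting error only.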

Additional observations from a re-analysis of the deposited data

Results flagged for a closer look

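The change with age differed between genotypes for 3660 genes that were more positive in mutants and 3024 that were more negative, by edgeR's interaction test at an adjusted p below 0.01. Which direction held more genes turned with the scaling, since DESeq2 gave 2995 and 3848. The genes with a symbol and the largest differences on the log2 scale are given here. Hmx3 (7.33), Gm364 (7.14), Sohlh1 (6.98), Foxr1 (6.92) and Sall4 (6.79) rose in mutants and fell in wild type. Hmx3 and Foxr1 were low, at 0 and 2 counts and at 0 and 1 count in the mutants of 21 d.p.p., and their change within mutants was not called without any 1 of the 4 libraries. Odf1 (-10.83) rose in wild type to 1748 and 2144 CPM, and Gm11992 (-9.48) to 32.5 and 28.4 CPM with no count in either adult mutant. Vdr (-7.33) and Epha3 (-7.29) rose in wild type, Epha3 to 38.5 and 47.2 CPM, and Vdr fell in mutants, while Epha3 was not called there (edgeR adjusted p = 0.0608). Fgl1 (-8.35) rested on 1 library, since the mutants of 21 d.p.p. stood at 0.112 and 9.77 CPM. Its difference was -3.03 without replicate 2, which was not called (edgeR adjusted p = 0.0793), and of the other 7 libraries only mutant replicate 1 of 21 d.p.p. could be left out without ending the call. Odf1 and Gm11992 lost their calls without mutant replicate 2 of 21 d.p.p. (edgeR adjusted p = 0.026 and 0.0101).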

How the results depend on the processing

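Counts of genes higher and lower in adult mutants were 1489 to 1996 and 956 to 1717 when 1 library was left out, with the lowest counts of both without adult replicate 2. They were 1274 and 896 with all 12 libraries in one fit, 559 and 316 against a fold of 2, and 3693 and 3417 at an adjusted p below 0.05. Lower genes numbered 928 by library totals and 2880 without the filter. DESeq2 gave 2644 and 2156. For the interaction, leaving out 1 library gave 2069 to 3029 more positive and 2300 to 3453 more negative genes. More negative genes numbered 1750 by library totals, and library totals without the 10 most abundant genes gave 6485 and 1812. The share of more positive genes was 54.8%, but 69.4% with upper-quartile scaling, 63.3% by library totals, 78.2% without the abundant genes and 43.8% with DESeq2, and the median difference moved from 0.29 to between 0.08 and 1.04. The median change within mutants was 0.13 by library totals. The cause was not tested. Among 1524 recomputed values of named genes, 166 called ones lost their call, 18 others gained one, and no called gene changed direction. Of the rest, 1339 stayed the same and 1 moved in another way.

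In the libraries used here replicate numbers name different animals. Deviations of same-numbered mutant libraries correlated at 0.17 and those of wild type at -0.27, so the numbers were not taken as pairs. A replicate block gave 2773 higher and 2393 lower genes in mutants, and 3207 and 2801 for the interaction. Low counts limit the germ cell genes: 38 of 74 had at least 10 counts in every library, and 23 of these were higher.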
